A study of Mus musculus with 4 samples.

Results

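Integrins are paired cell-surface receptors, 1 alpha with 1 beta chain, that hold a cell to its matrix and signal when bound. Described here are the mRNA signals of 10 integrin subunit genes that lie outside the hemidesmosome: the alpha chains Itga2, Itga3, Itga5 and Itgav and the beta chains Itgb1, Itgb2, Itgb3, Itgb5, Itgb6 and Itgb8. The members are all probe sets (groups of short array probes for 1 transcript) that the platform annotation of 2016 pairs with just 1 of these symbols, which gave 10 of the 18194 genes so named and 29 of the 45101 probe sets on the array. Of the 10 genes, 7 had more than 1 probe set and 3 had 1. The cells were 4T1, a mouse mammary carcinoma line, cultured in serum-containing RPMI under normoxia in every group. Total RNA of 2 samples positive and 2 samples negative for CD44v8-10, a splice form of the hyaluronan receptor CD44 with variant exons, was hybridised to 4 one-colour Affymetrix arrays. The cells were picked by hand under a dissecting microscope, and the labels do not say how CD44v8-10 was scored or whether replicates were separate cultures, so p-values reflect no more than the variation among these 4 samples, part of which may be technical.

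The alpha chain mostly sets what an integrin binds and the beta chain carries the tail that talin and kindlin engage. Itgb1 pairs with Itga2 as a collagen receptor, with Itga3 as a laminin receptor and with Itga5 as the fibronectin receptor. Itgav pairs with Itgb1, Itgb3, Itgb5, Itgb6 or Itgb8 and reads the RGD motif in fibronectin, vitronectin and the latent form of TGF-beta. Itgb6 is made mainly by epithelial cells, Itgb3 is best known from platelets and endothelium, and Itgb2 is the beta chain of leukocyte integrins. Array signals depend on the probes, so each difference in the main fit was taken between arrays for 1 probe set. Brightness compared between probe sets is only a rough guide, and summed signals of several genes weigh bright probe sets most.

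The arrays had trimmed means of 196 to 345 as deposited and were quantile normalized, which gives all arrays the same distribution of signals. Pearson correlations between arrays across 11956 genes were 0.968 to 0.985, and the 2 positive arrays, at 0.972, were less alike than positive replicate 1 and negative replicate 1, at 0.985. The simple-epithelial keratins Krt8 and Krt18 marked the cells as epithelial, with signals of 7719 or more in all 4 arrays. Leukocyte markers were near the dim end at the brightest probe set of each, which all sums here use. The summed signal of 7 of 8 markers with a probe set was 125 to 127 in positive and 125 to 141 in negative arrays. Another Laptm5 probe set, outside this sum, had a log2 difference of 1.44 between positive and negative cells. Ptprc (CD45), which defines leukocytes, lay at 0.825 to 12.7.

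No integrin subunit differed between CD44v8-10-positive and negative cells past the threshold, which was a two-sided limma p of 0.05 after Benjamini-Hochberg adjustment over all 11956 genes tested. The epithelial chain Itgb6 had the largest difference, 1.83-fold higher in positive cells with 16 added to every signal, the scale of all folds here. The leukocyte chain Itgb2 had the largest in the other direction, 1.45-fold lower, and neither passed. At their brightest probe sets Itgb1, Itgav and Itga3 differed by about 1.20-fold or less. Other probe sets reached log2 differences of 0.46 for Itgb1, 0.30 for Itga3 and, opposite in sign to its brightest, 0.45 for Itgav. Itgb3 and Itgb8 were too dim to test.

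Above the filter on dim probe sets, a normalized signal of 19.4, were 21 of the 29 member probe sets, from 8 of the 10 genes. A gene was tested by its brightest probe set. Limma called 0 of the 8 genes higher and 0 lower, where it called 0.0753% of all genes higher and 0% lower. At an unadjusted p under 0.05 it had 1 of the 8 higher, Itgb6, against 2.68% of all genes, and 0 lower, against 1.76%. The adjusted p of the 8 genes ran from 0.985 to 0.993. At the brightest probe set, the 95% interval of the log2 difference lay within 2-fold, between -1 and 1, for 6 of the 8 genes. Itgb6 and Itgb2 were the exceptions. Fitted singly, other probe sets passed 1 at the upper limit for Itga3 (1.12 and 1.05), Itga5 (1.28), Itgb1 (1.13 and 1.02) and Itgav (1.02). The remaining probe sets of these 6 genes above the filter stayed between -1 and 1. In a fit over single probe sets, 0 of 21 passed in either direction (lowest limma adjusted p 0.959), where 0.0333% of all probe sets were called higher and 0% lower. At an unadjusted p under 0.05 were 1 of the 21 higher, that of Itgb6, against 2.04% of all probe sets, and 0 lower, against 2.58%.

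**Figure D1:**
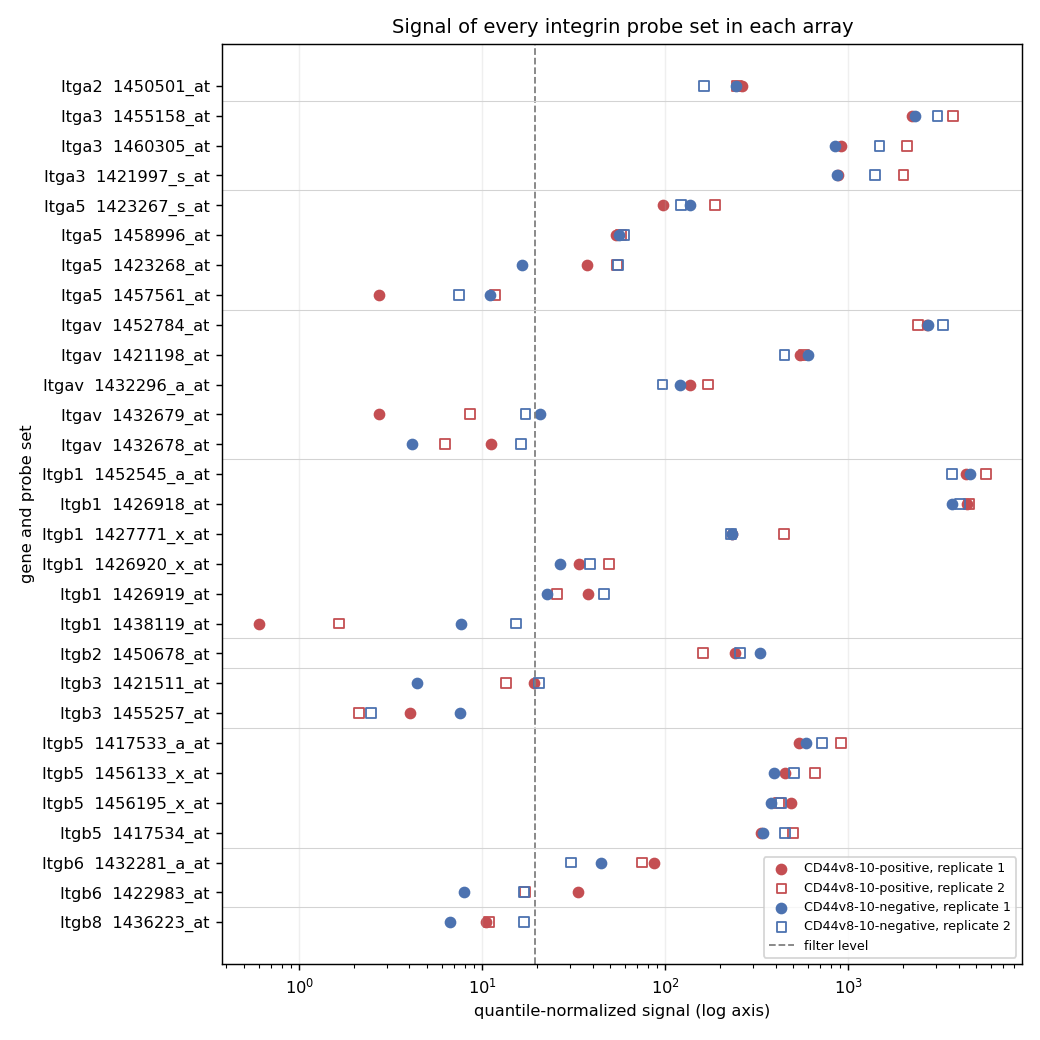
Quantile-normalized signal (log axis) of the 29 integrin probe sets in each of the 4 arrays; circles are replicate 1 and squares replicate 2, red positive and blue negative, and the dashed line is the filter level of 19.4. Red and blue symbols interleave in most rows, and the brighter Itgb6 row has both red symbols right of both blue ones.

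Itgb6 pairs with Itgav alone, and the receptor binds and activates latent TGF-beta. Its brighter probe set, 1432281_a_at, had normalized signals of 87.1 and 74.8 for positive cells and 44.3 and 30.5 for negative cells. The groups did not overlap, and the lower positive array stood well clear of the higher negative one. Differences are given as log2(value + 16), a scale that shrinks those of dim probe sets, and here the difference was 0.87 ± 0.31 (SE; 95% interval 0.19 to 1.56), with an unadjusted p of 0.0168 and an adjusted p of 0.985 by limma. The size of this difference exceeded that of 98.0% of all genes tested. A second Itgb6 probe set, 1422983_at, had signals of 33.3 and 17.05 in positive and 7.95 and 16.975 in negative arrays. It also had both positive arrays higher, with the nearest pair almost equal, but 3 of its 4 arrays lay below the filter level, so it was not tested. Itgb6 as a gene kept its direction but its size depended on the pseudocount, at 1.11 with 1 and 0.52 with 64, and ranged from 0.63 to 1.08 when single arrays were left out. It had an unadjusted p of 0.141 without negative replicate 2, 0.0577 without positive replicate 1 and 0.176 with no scaling between arrays. Beside it, the 6 epithelial markers tested were all above 0, against 54.3% of all genes, with a median log2 difference of 0.38. Their summed signals were 33586 and 36859 in positive and 26859 and 32787 in negative arrays. Without negative replicate 1, 3 of the 6 were above 0 and the median was 0.16. Of these markers Epcam rose, by 1.34 (limma adjusted p 0.0118), but missed the threshold without positive replicate 1 (adjusted p 0.0842) or 2 (0.258). Their part in the Itgb6 difference was not tested.

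Itgb2 joins Itgal, Itgam or Itgax in leukocytes. Its single probe set gave 239 and 160 for positive cells and 330 and 256 for negative cells. Both negative arrays were the brighter ones, with 239 and 256 as the nearest pair. The log2 difference was -0.53 ± 0.25 (SE; 95% interval -1.09 to 0.02; limma unadjusted p 0.0575, adjusted p 0.985). Without positive replicate 2 it was -0.27, and without positive replicate 1 it was -0.79. Without negative replicate 2 it was -0.71, and without negative replicate 1 it was -0.36. The unadjusted limma p of Itgb2 fell under 0.05 under median centring (0.0265) and with one trimmed mean (0.0394). It also did so with probe sets averaged in each gene (0.0441) and with the replicate block (0.0224). In the other settings that kept all arrays, the unadjusted limma p stayed above 0.05, up to 0.220 with no scaling. The alpha partners Itgal, Itgam and Itgax were all below the filter, with signals of at most 25.7 in any array, and Itgad had no probe set with that symbol alone. Of the leukocyte markers, Laptm5 and Coro1a alone were tested. Coro1a had a difference of -0.18. Laptm5 had -0.0057, but its 3 probe sets above the filter ran from -0.02 to 1.44, and without positive replicate 1 another of them was its brightest, at 3.05 (limma adjusted p 0.0328). Of 9 macrophage and granulocyte markers 4 were tested, and all 4 lay above 0, against 54.3% of all genes, with a median of 0.44. At an unadjusted limma p under 0.05 were 0 of the 4. Summed signals of all 9 were 483 and 644 in positive and 438 and 374 in negative arrays. A relation of these markers to the Itgb2 difference was not tested.

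Itgb1 is the shared beta chain of the collagen, laminin and fibronectin receptors. Its brightest probe set, 1452545_a_at, had signals of 4388 and 5655 in positive and 4612 and 3704 in negative arrays. The groups overlapped, since positive replicate 1 lay below negative replicate 1. The log2 difference was 0.27 ± 0.17 (SE; 95% interval -0.11 to 0.65; limma adjusted p 0.985), and 0.086 to 0.45 when single arrays were left out, lowest without positive replicate 2. The almost equally bright probe set 1426918_at had 4421 and 4549 in positive and 3687 and 4057 in negative arrays, without overlap, and a difference of 0.21. The remaining 3 Itgb1 probe sets above the filter gave -0.06, 0.24 and 0.46. The highest, 1427771_x_at, rested on positive replicate 2: its signals were 231 and 446 in positive and 230.3 and 229 in negative arrays, and without that array its difference was 0.0057. A sixth probe set, 1438119_at, was below the filter, with 0.600 and 1.65 in positive and 7.68 and 15.3 in negative arrays, and was not tested.

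Itgav is the alpha chain common to the RGD-binding receptors of this set. Its brightest probe set, 1452784_at, had signals of 2689 and 2388 in positive and 2729 and 3280 in negative arrays. Both positive arrays lay lower, although positive replicate 1 and negative replicate 1 differed by little. The log2 difference was -0.24 ± 0.17 (SE; 95% interval -0.61 to 0.13; limma adjusted p 0.985), and -0.36 to -0.11 when single arrays were left out. The probe sets of Itgav disagreed in sign: 1421198_at gave 0.10, with overlapping signals of 544 and 571 against 600.2 and 448, and 1432296_a_at gave 0.45, with 137 and 170.5 in positive above 120.2 and 96.5 in negative arrays. None of the 3 passed, and the mean of the 3 probe sets turned the gene's difference to 0.10. The other 2 Itgav probe sets, 1432678_at and 1432679_at, were below the filter.

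Itgb5, the vitronectin-binding partner of Itgav, had 4 probe sets above the filter, and all 4 differences were small and above 0, although 2 turned below 0 under median centring and 3 with no scaling: 0.11 for the brightest, then 0.28, 0.16 and 0.06. Its brightest probe set, 1417533_a_at, had signals of 538 and 914 in positive and 585 and 721 in negative arrays. The groups overlapped, because the positive arrays stood at both ends of the range. The difference of 0.11 ± 0.26 (SE; 95% interval -0.45 to 0.67; limma adjusted p 0.990) became -0.015 under median centring, -0.10 with no scaling, -0.27 without positive replicate 2 and -0.039 without negative replicate 1. Itgb3 and Itgb8, the other RGD-class beta chains, lay at the dim end. The 2 Itgb3 probe sets had signals of 19.3 and 13.5 in positive against 4.40 and 20.45 in negative arrays, and 4.05 and 2.13 against 7.58 and 2.48. The Itgb8 probe set had 10.5 and 10.8 against 6.70 and 16.9. These groups overlapped for all 3 probe sets, and no difference was detectable at such signals. Over the 8 member probe sets below the filter, 3 of 32 single values exceeded the filter level.

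Itga3, the alpha chain of the laminin receptor with Itgb1, varied more inside each group than between the groups. Its brightest probe set, 1455158_at, had signals of 2232 and 3739 in positive and 2300 and 3069 in negative arrays. Replicate 2 was the brighter array in both groups and the groups overlapped. Both other Itga3 probe sets had the same order, with 911 and 2100 against 849 and 1480 for 1460305_at, and 880 and 2001 against 868 and 1400 for 1421997_s_at. The differences between the groups were 0.12 ± 0.23 (SE; 95% interval -0.39 to 0.63; limma adjusted p 0.990) for the brightest probe set and 0.30 and 0.27 for the others. The first was -0.017 with no scaling between arrays, -0.25 without positive replicate 2 and -0.085 without negative replicate 1.

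Itga2, the collagen-binding alpha chain, was measured by 1 probe set with signals of 261 and 246 in positive and 242 and 163 in negative arrays. Its groups did not overlap, but 246 and 242 were close together, and negative replicate 2 was the low array. The log2 difference was 0.33 ± 0.25 (SE; 95% interval -0.21 to 0.86; limma adjusted p 0.985), and 0.06 without negative replicate 2. Itga5, the fibronectin-receptor alpha chain, had signals of 97.3 and 187 in positive and 137 and 121 in negative arrays at its brightest probe set, 1423267_s_at. The positive arrays lay on either side of the negative ones. Its difference of 0.06 ± 0.30 (SE; 95% interval -0.58 to 0.71; limma adjusted p 0.993) was -0.085 under median centring, -0.17 with no scaling, and -0.037 with the less specific probe sets left out. It was -0.36 without positive replicate 2, -0.0092 without negative replicate 2 and 0.48 without positive replicate 1. Of 2 dimmer Itga5 probe sets above the filter, 1458996_at was level, with 54.0 to 59.2 in all arrays and a difference of -0.04, and 1423268_at gave 0.34, with negative replicate 1, at 16.6, below the other arrays.

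**Figure D2:**
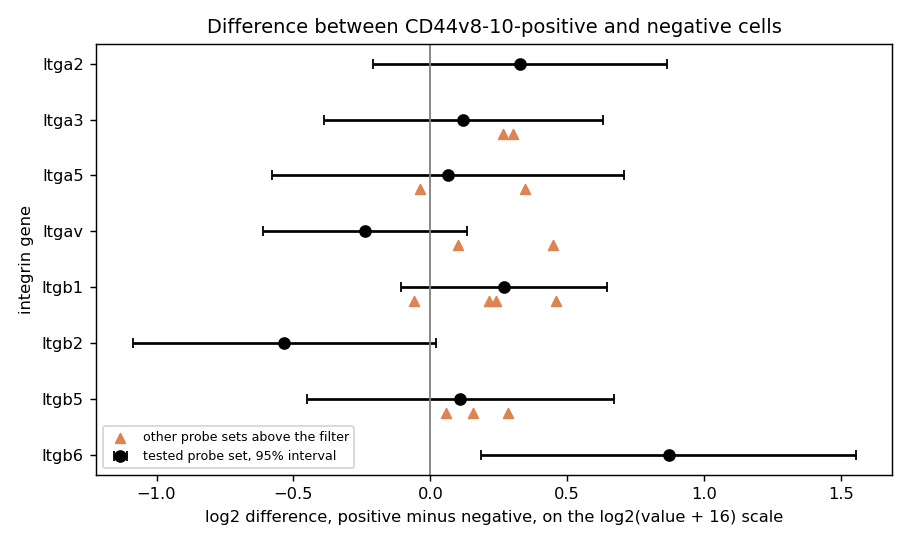
Log2 difference, positive minus negative, on the log2(value + 16) scale for the 8 integrin genes tested; dots are the tested probe set with its 95% interval and triangles the other probe sets above the filter. Of the 8 intervals, that of Itgb6 alone excludes 0 before adjustment, and triangles of Itgav, Itga5 and Itgb1 fall on both sides of 0 or opposite their dot.

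The tested integrins lay on both sides of 0. Of the 8 genes 6 were above 0 and 2 below, with a median log2 difference of 0.11, where 54.3% of all genes were above 0 and their median was 0.03. The count above 0 depended on scaling: it was 4 under median centring and 3 with no scaling, where the median of all genes itself moved by -0.18; the integrin median stood 0.09 above that of all genes in both. The count also turned on single arrays, with 3 of 8 above 0 and a median of -0.20 without positive replicate 2, and 6 of 8 and a median of 0.46 without positive replicate 1. Groups were separate with positive higher for 2 of the 8 genes, Itga2 and Itgb6, against 18.5% of all genes, and with negative higher for 2, Itgav and Itgb2, against 13.8%. Of the 21 probe sets above the filter 17 lay above 0, against 50% of all probe sets. Groups were separate for 7 of the 21 probe sets above the filter, 5 with positive higher, against 16.5% of all probe sets, and 2 with negative higher, against 16.7%. Probe sets of 1 gene share its transcripts and are not separate evidence.

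Replicates of a group often differed more than the groups. In 6 of the 8 genes, and in 17 of the 21 probe sets, the gap between the arrays of at least 1 group was larger than the gap between the group means. Replicate 2 was above replicate 1 in both groups in 10 of 21 probe sets, among them all 3 of Itga3 and 3 of the 4 of Itgb5, against 25.4% of all probe sets, and below it in both groups in 3, those of Itga2, Itgb2 and Itgb6, against 28.3%. By gene these counts were 2 of 8, against 27.3%, and 3 of 8, against 27.9%. For the brightest Itga3 probe set these gaps were 0.74 in the positive and 0.41 in the negative group on the log2(value + 16) scale, beside 0.12 between the groups. The labels do not say that arrays of the same number share a culture or a day.

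**Figure D3:**
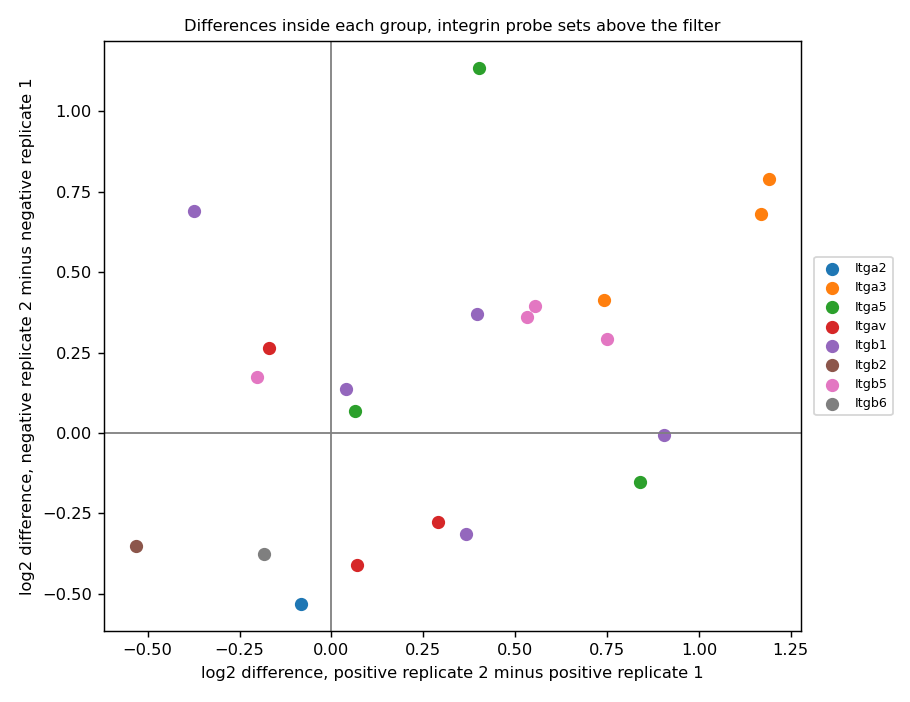
Log2 difference between replicate 2 and replicate 1 inside the positive group (horizontal axis) and inside the negative group (vertical axis), 1 point for each of the 21 integrin probe sets above the filter, coloured by gene. The 3 Itga3 points and 3 of the 4 Itgb5 points lie in the upper right, where replicate 2 was brighter in both groups.

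None of the other integrin subunits passed either. Of 16 listed 6 were tested, 5 of them above 0, against 54.3% of all genes, with a median of 0.26. Itga6, of the laminin receptors, had -0.26, and the platelet chain Itga2b had 0.39. At an unadjusted p under 0.05 were 2 of the 6, against 2.68% of all genes higher. Itgb4, the hemidesmosome beta chain, had 0.74, with overlapping groups, and 0.27 (unadjusted p 0.469) without negative replicate 1 or 0.41 (0.304) without positive replicate 2. Itga9 had 0.98, with 4.70 and 17.0 in its negative arrays, below the filter level, so that its size is inexact. Among 7 hemidesmosome genes tested, 4 were above 0, against 54.3% of all genes, with a median of 0.31. The laminin chain Lama3, a part of the ligand of Itga3 and Itga6 receptors, passed at 1.66 (limma adjusted p 0.0302), but not without any 1 of the 4 arrays (adjusted p 0.0621 to 0.272). Plec, at 0.31, and the tetraspanin Cd151, at -0.19, did not pass.

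Among secreted matrix ligands of these receptors, Postn and the laminin chain Lama3 passed, though some members were known to differ in these samples when the list was made. Of 10 ligands of fibronectin and matricellular type 9 were above 0, against 54.3% of all genes, with a median of 0.33, and 5 were higher at an unadjusted p under 0.05, against 2.68%. Periostin, Postn, which binds Itgav receptors, rose by 2.81 (limma adjusted p 0.000582). Thrombospondin, Thbs1, had signals of 2802 and 2569 in positive and 1780 and 1493 in negative arrays, and a difference of 0.71 (limma adjusted p 0.459) that its second probe set gave as 0.72. Tenascin C, Tnc, with 115 and 130 against 63.9 and 45.9, had 0.97 (limma adjusted p 0.795). Fibronectin, Fn1, had 0.70 and 0.15 in its 2 probe sets, Ctgf 0.42 and Cyr61 0.20. Of 12 collagen and laminin chains 10 were above 0, against 54.3% of all genes, with a median of 0.18. That count fell to 5 with no scaling (median -0.02, beside -0.15 for all genes). It was 5 without negative replicate 1 (median -0.11) and 6 without positive replicate 2 (median 0.02). Besides Lama3 the chains included Lamb1 at -0.22, Col4a1 at 0.22, Lamb3 at 0.47, Col5a1 at -0.68 and Col6a2 at 0.79. Latent TGF-beta genes, which Itgb6 and Itgb8 receptors act on, had 3 of 7 above 0 and none at an unadjusted p under 0.05. The count above 0 was 6 without positive replicate 1 or without negative replicate 2. It was 1 without negative replicate 1, under median centring or with no scaling. Tgfb1 had 0.29, Ltbp1 -0.08 and Ltbp3 0.02, and Ltbp3 turned to -0.091 under median centring and -0.17 with no scaling.

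Inside the cell, none of 36 adaptor and focal adhesion genes passed limma, against 0.0753% of all genes called higher and 0% lower. Above 0 were 17, and their median was -0.02. At an unadjusted p under 0.05, 1 was lower and 0 higher. Of all genes tested 54.3% were above 0, with a median of 0.03, and at that p 1.76% were lower and 2.68% higher. The same shares stand beside the other lists below. The GTPases Rap1b and Rap1a that activate integrins and the tensin Tns3, had -0.10, -0.15 and -0.11. Tns4, a tensin that binds the beta tail, had signals of 151 and 168 in positive and 291 and 365 in negative arrays and a difference of -0.96 (limma unadjusted p 0.00126, adjusted p 0.399), while its second probe set gave -0.20. Of 13 membrane partners 7 were above 0, with a median of 0.0050: Bsg had 0.06 and Slc3a2 0.08, which became -0.055 and -0.048 with no scaling, Cd9 had -0.06, and caveolin, Cav1, had -0.50 (unadjusted p 0.0449, limma adjusted p 0.985). When no scaling was used, 0 of the 13 membrane partners were above 0 (median -0.19), and 9 of the 36 adaptor and focal adhesion genes (median -0.20). The median of all genes was then -0.15. Of 15 genes of integrin traffic 7 were above 0, with a median of -0.05, and 2 with no scaling (median -0.22). Among them Rab25, which recycles Itgb1 receptors, rose by 3.25 (limma adjusted p 0.000639), with negative signals of 5.78 and 6.13 below the filter level, so that its size is inexact. Dab2, an endocytic adaptor of Itgb1, had -0.60 (unadjusted p 0.0313), and Hax1, Snx17 and Arf6 had -0.19, -0.12 and -0.10. Of the markers of other cells, 3 of 7 fibroblast markers were above the filter, with summed signals of all 7 of 150 to 167 in positive and 191 to 196 in negative arrays. Of those 3, 2 were above 0 and 1 was at -0.94 (limma unadjusted p 0.0111, adjusted p 0.980). Of 5 endothelial markers 0 were above it, with sums of 86.6 to 91.6 and 41.8 to 45.65. Of 5 platelet markers 3 were, all above 0 with a median of 0.39, and the sums were 290 to 305 and 185 to 256.

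**Figure D4:**
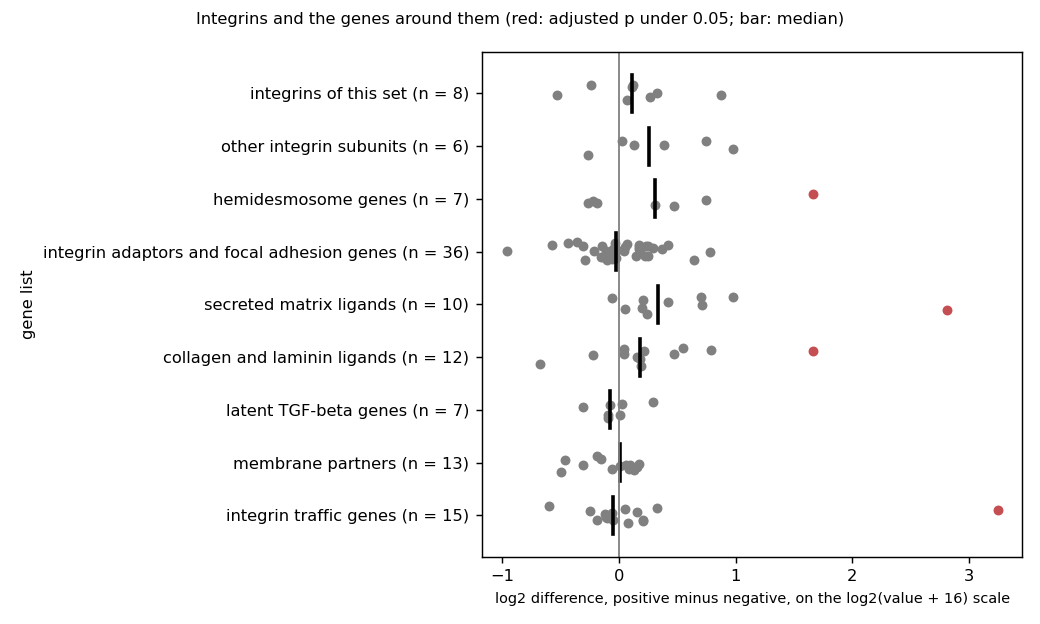
Log2 difference, positive minus negative, of every tested gene in the integrin set and in 8 lists around it; grey points did not pass, red points passed an adjusted p of 0.05 and the black bar is the list's median. The 8 integrins are all grey and lie between -0.53 and 0.87, while the red points are Lama3 (in 2 lists), Postn and Rab25.

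**Figure D5:**
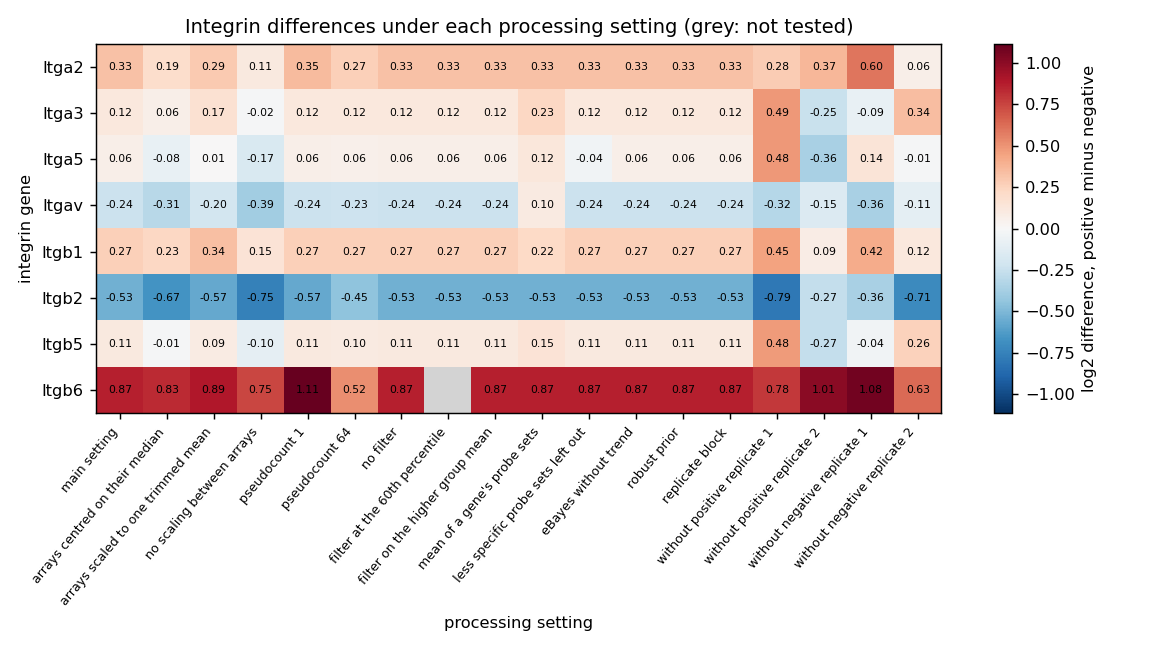
Log2 difference of the 8 integrin genes under each processing setting, printed in each cell and coloured red where positive cells were higher and blue where negative cells were higher. Itgb6, Itgb1 and Itga2 stay red and Itgb2 stays blue in every column where they were tested, while Itga3, Itga5, Itgav and Itgb5 change colour.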

How the data were processed

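The deposited values were linear intensities, 1 for each probe set and array, from 0.1 to 22695.6. GCOS is named in the submitters' processing notes without a role, while for summary method, background correction and scaling the entry is: not given in the sources used here. Samples were grouped by their titles. Values were quantile normalized and taken as log2(value + 16). Then 64 control probe sets and those with a mean below the 40th percentile were removed, which left 27022. Probe sets were named where the annotation gives 1 symbol (34945; 932 had several and 9160 none). Each gene was tested by its brightest probe set (11956 genes) in limma 3.58.1 under R 4.3.3, with lmFit and eBayes with an intensity trend, two-sided and Benjamini-Hochberg adjusted; a second fit took every probe set. The median SE was 0.24, and 2 arrays a group limit the precision. The procedure was tested on simulated data, with changes larger than any integrin difference in the main fit, so recovery of differences of that size was not examined. The members and lists were chosen with earlier results of these data known. All member genes are named. From the lists other than cell type markers, those named are genes past the threshold, the 3 brightest and those at an unadjusted p under 0.05. Of the markers, Epcam is named as past the threshold. Others (Krt8, Krt18, Ptprc, Laptm5, Coro1a, Itgal, Itgam, Itgax, Itgad) were picked with their values in view. The alternatives were other scalings, pseudocounts, filters, probe set rules and variance models, the replicate block, and leaving out each array.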

Additional observations from a re-analysis of the deposited data

How the results depend on the processing

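Over 17 other settings no integrin gene passed the threshold. Single probe sets were fitted in 15 of these settings, and no integrin probe set passed in them. Of 135 integrin gene values, 122 kept their direction and 13 turned it. Many of the 122 could not turn, because the filters, variance models and replicate block left the differences as in the main fit. Itga2, Itgb1, Itgb2 and Itgb6 kept their direction in every setting in which they were tested. Itgb6 was below the filter at the 60th percentile. Causes of the turns were not tested.

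Under median centring Itga5 was -0.085, Itgb5 -0.015 and its probe set 1417534_at -0.078, Itgav probe set 1421198_at -0.022 and Ltbp3 -0.091. With one trimmed mean Itgb1 probe set 1426919_at was 0.0071 and Laptm5 0.038. With a pseudocount of 64 Laptm5 was 0.95. With no scaling Itga3 was -0.017, Itga5 -0.17, Itgb5 -0.10, its probe sets 1417534_at -0.16 and 1456195_x_at -0.048, Itgav probe set 1421198_at -0.10, Ltbp3 -0.17, Bsg -0.055 and Slc3a2 -0.048. Averaging all probe sets of each gene, Itgav was 0.10, Rap1b 0.023, Rap1a 0.0091, Arf6 0.026, Laptm5 0.47 and Ltbp3 -0.20. With the less specific probe sets left out Itga5 was -0.037, Laptm5 1.44, Cd151 0.029 and Hax1 0.033. Leaving out 1 array leaves a group with 1, which the fit assumes to vary like the other group. Leaving out single arrays gave -0.25 to 0.49 for Itga3 (its other probe sets -0.32 to 0.84 and -0.30 to 0.89), -0.36 to 0.48 for Itga5 (1423268_at -0.23 to 0.83), -0.27 to 0.48 for Itgb5 (1417534_at -0.22 to 0.33), -0.11 to 0.31 for Itgav probe set 1421198_at and -0.41 to 0.26 for Itgb1 probe set 1426919_at. The same gave -0.29 to 0.33 for Ltbp3, -0.43 to 0.28 for Ltbp1, -0.15 to 0.28 for Bsg, -0.24 to 0.40 for Slc3a2, -0.41 to 0.039 for Cd151, -0.12 to 5.8e-05 for Cd9, -0.20 to 0.0017 for Rap1b, -0.092 to 3.05 for Laptm5 and -0.13 to 0.56 for Col4a1.

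Over all genes, 9 were called higher and 0 lower; 20 and 5 under median centring, and 3 higher with no scaling, 3 with no filter and 2 without the intensity trend. Without single arrays 6 to 16 were higher (16 without positive replicate 1) and 0 to 1 lower (1 without negative replicate 2). With the replicate block 15 were higher and 3 lower, 0 of them integrins (lowest limma adjusted p 0.531). Same-numbered arrays deviated together with a correlation of 0.12 over 11956 genes, and 2 pairs do not settle whether the numbers pair the samples. Postn missed the threshold with no scaling (0.0716), no filter (0.0638) and no trend (0.0760), Rab25 with no filter (0.105), Epcam with no scaling, no filter, no trend and probe sets averaged (0.105 to 1.00), and Lama3 with one trimmed mean, no scaling, no filter and no trend (0.0715 to 1.00). Signals below the filter level limit Itgb3, Itgb8 and the second Itgb6 probe set, which were not tested in the main fit. With no filter all 10 integrin genes were fitted, and none passed (lowest limma adjusted p 0.963).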
